A study of Arabidopsis thaliana with 12 samples.

Results

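RNA levels were compared between Arabidopsis thaliana seedlings that carry an alanine in place of threonine 31 of histone H3.3 and wild-type seedlings of the Col accession. Genes were included where the level was at least 1 TPM, a share of a library's reads scaled by gene length, in 3 or more of the 6 libraries, and 19348 of the 23916 genes in the deposited table met that rule. Of these, 19228 are annotated as protein-coding, 98 reached the minimum in no Col library and 99 in no T31A library.

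The T31A seedlings had the genotype h3.3ko;HTR5 T31A, an H3.3 knockout background with an HTR5 copy that carries the substitution, and 3 libraries were made from them and 3 from wild type. Another pair of genotypes with 3 libraries each, h3.3ko;HTR5 K36A and the mutant efs, entered the fit and are used here for direct contrasts. All seedlings were 10 days old and grew at 22 °C in days of 16 h light and nights of 8 h. The T31A and K36A lines share the knockout background, and a knockout line with an unmutated HTR5 copy was not analysed here, so a difference from Col covers the knockout, the introduced copy and the substitution together. The promoter that drives the introduced copy, the number of independent lines, the time of harvest and whether the libraries of a genotype come from separate cultures were not stated in the sources used here. The p-values therefore measure the spread between these libraries, which may be technical.

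H3.3 is the histone H3 variant that is deposited outside of DNA replication, mostly over transcribed genes, while H3.1 is deposited when DNA is copied. In plants both proteins differ at position 31, where H3.3 carries threonine and H3.1 carries alanine, a residue that the H3.1 methyltransferases ATXR5 and ATXR6 require. Lysine 36 lies a few residues further along the same tail, and its methylation, placed in Arabidopsis mainly by EFS (also called SDG8), marks the bodies of active genes. H3.3 in Arabidopsis comes from HTR4, HTR5 and HTR8.

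The coding sequences around both residues are shown because they define the genotypes. They run 5′ to 3′ from codon 27 to codon 38, counted without the initiator codon, and were read from the RefSeq assembly TAIR10.1; the first triplet in capitals is codon 31 and the second is codon 36.
HTR5 (chr4:18558033-18558068, minus strand): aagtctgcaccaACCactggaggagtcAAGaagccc
HTR4 (chr4:18556219-18556254, minus strand): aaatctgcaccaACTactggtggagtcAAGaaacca
HTR8 (chr5:3472975-3473010, minus strand): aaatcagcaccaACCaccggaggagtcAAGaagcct
HTR1, an H3.1 gene (chr5:26120393-26120428, minus strand): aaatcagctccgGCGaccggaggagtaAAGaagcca
All 3 H3.3 genes have a threonine codon at position 31 (ACC or ACT), HTR1 has the alanine codon GCG there, and all 4 share AAG, a lysine codon, at position 36. The wild-type window of HTR5 differed from those of HTR4, HTR8 and HTR1 at 5, 4 and 9 of 36 bases.

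The libraries held between 19559744 and 34098032 reads, recovered from the TPM values, and within a genotype they correlated at 0.985 to 0.994 for Col and 0.994 to 0.995 for T31A (Pearson r across genes, log2 scale), against 0.966 to 0.977 between the genotypes. Col replicate 1 stood apart: relative to the mean library, its short transcripts minus its long ones gave a log2 difference of -0.25, against -0.05 to 0.15 in the 11 other libraries, so results that rest on it are given with and without it. The seedling label was checked with marker genes. The 21 photosystem and antenna genes summed to 73856 to 88161 TPM in the 6 libraries. The 17 root markers summed to 222 to 381 TPM, while the 7 flower and pollen markers summed to no more than 3.53 TPM and the pollen gene VGD1 was listed at 0 throughout.

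The H3.3 genes were examined first, since they carry the genotype. HTR8 (AT5G10980) was at 108, 147 and 134 TPM in the 3 Col libraries and at 18.7, 12.4 and 18.3 TPM in the 3 T31A libraries, a log2 difference of -2.91 ± 0.14 (SE; limma adjusted p = 2.9e-09). The groups were far apart, but HTR8 reads did not vanish in T31A. HTR4 (AT4G40030) was at 234, 290.5 and 304 TPM in Col and at 185, 202 and 189 TPM in T31A, a fall of a smaller size (-0.51 ± 0.09, adjusted p = 0.00055), and all T31A libraries were again below all Col libraries. HTR5 (AT4G40040), whose row may also collect reads of the introduced copy, was at 282, 352 and 352 TPM in Col and at 643, 633 and 681 TPM in T31A (0.99 ± 0.08, adjusted p = 4.1e-07), and every T31A library was above every Col library. K36A seedlings, with the same background, were at 22.5, 21.5 and 18.1 TPM for HTR8 and 593, 592 and 587 TPM for HTR5, and neither gene was called between T31A and K36A (limma adjusted p = 0.094 and 0.2). EFS (AT1G77300) was at 17.5, 13.6 and 15.5 TPM in Col and at 18.5, 20.3 and 14.6 TPM in T31A, and it was not called (0.18 ± 0.12, adjusted p = 0.31). HTR4 kept most of its Col level in the libraries labelled h3.3ko. Which parts of HTR4 and HTR8 the knockout removes was not stated, and values summed over a gene cannot show the changed codon, so these levels do not test the labels. The 3 genes have similar coding sequences, and how reads that match several copies were assigned was not stated either.

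In T31A seedlings 5313 genes, 27.5% of those tested, differed from Col at an adjusted p below 0.05 (limma, Benjamini-Hochberg over all 19348 genes). Of these, 3122 were higher in T31A (16.1% of genes tested) and 2191 were lower (11.3%), so 58.8% of the calls were higher. Counts given below for gene lists are to be read beside these shares of all genes tested. T31A and Col values did not overlap in 5149 of the 5313 called genes, so a gap between the groups is common to called genes. Most differences were small: the median size of a called difference was 0.42 on the log2(TPM + 1) scale, where changes of low genes are understated. In all, 395 called genes differed by at least 1 on that scale, 229 higher (1.18%) and 166 lower (0.858%). This cut is called 2-fold below, although low genes need a larger change in TPM to reach it. With 0.1 in place of 1 added to TPM the numbers were 344 and 311, and with 5 they were 106 and 61. In limma-voom on recovered reads they were 367 and 323. The median difference over all genes tested was 0.04. The balance of calls depended on scaling, since 44.7% of calls were higher after scaling by median-of-ratios and 47.2% after quantile normalization, with 202 against 201 and 213 against 202 genes past 2-fold. Another annotated gene overlaps 1432 called genes, and since the use of strand was not stated their reads may belong in part to the neighbour. Among genes named here, called or not, those with such a neighbour are EFS, AT5G42280, MBF1C, AT5G60250, HTR3, MSI1, TSO2, CDKB1;1, FLC, LNK1, RVE1, BOA, LUX, OLEO2, ABI1, BCAT4, ERS1, TCH2, LHCB3, CRD1, LYC, AT4G14090, DIN10, DIN6, BCAT2, PAP17, BHLH101, G6PD3, ARR6, ROT3, EXPA18, EXPA7, SHY2, GAMMA-H2AX, HTA4 and HTB9.

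**Figure D1:**
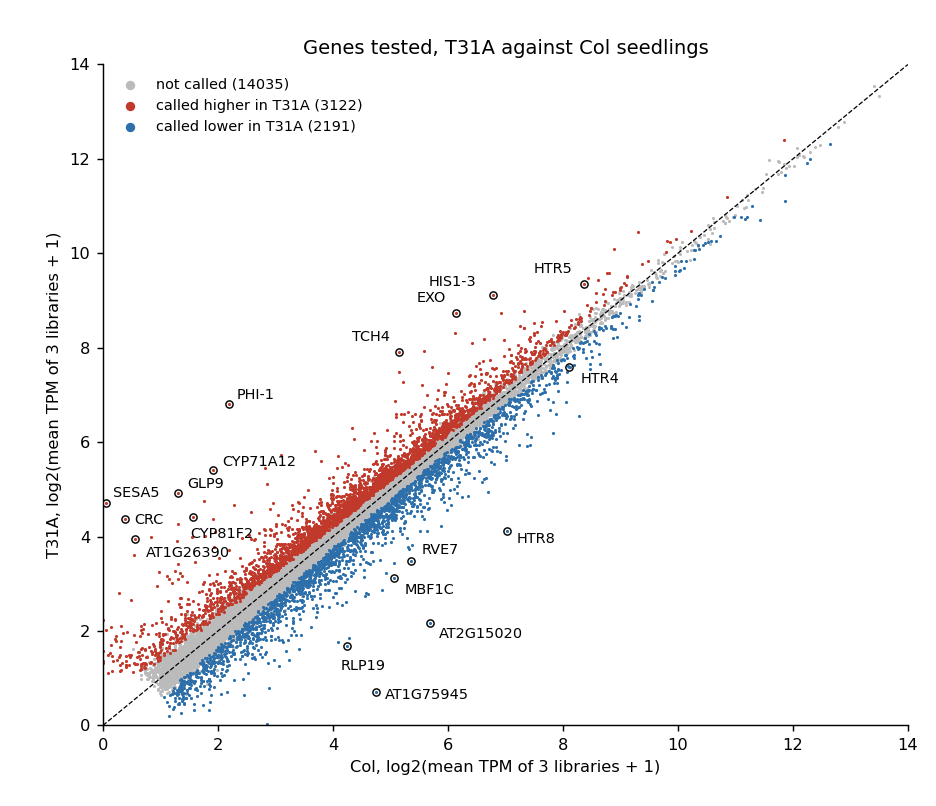
Each point is 1 of the 19348 genes tested, with its Col level on the x axis and its T31A level on the y axis, both as log2 of the mean TPM of 3 libraries plus 1. Red and blue mark genes called higher (3122) and lower (2191), the dashed line marks equal levels, and the labelled genes far from it include SESA5 and PHI-1 above and HTR8 and AT1G75945 below.

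On the log2(TPM + 1) scale the largest rises came from seed storage proteins, cell wall and growth genes, and defence genes. SESA5 (AT5G54740), which encodes an albumin stored in seeds, stood at 0, 0.104 and 0 TPM in the 3 Col libraries and at 26, 22.7 and 27.1 TPM in T31A (4.66 ± 0.18, adjusted p = 3.2e-10). PHI-1 (AT1G35140), of the phosphate-responsive EXORDIUM family, was at 3.25, 3.24 and 4.3 TPM in Col and 115, 106 and 112 TPM in T31A (4.61 ± 0.09). CYP71A12 (AT2G30750), a cytochrome P450 that converts indole-3-acetaldoxime in the synthesis of camalexin and related indolic defence compounds, was at 2.7, 2.93 and 2.73 TPM in Col and 40.8, 41.3 and 42.8 TPM in T31A (3.49 ± 0.11). In each of these genes the lowest T31A library was far above the highest Col library. Genes were ranked here only where the groups did not overlap, so that separation is part of the choice. Among the 14 largest rises were also the cruciferins CRC (AT4G28520, from 0.306 ± 0.309 to 19.8 ± 1.95 TPM, mean ± SD, n = 3) and CRA1 (AT5G44120, from 1.48 ± 0.394 to 18.3 ± 2.05 TPM), the germin-like protein GLP9 (AT4G14630, from 1.49 ± 0.423 to 29.2 ± 1.16 TPM), and the FAD-binding berberine family genes AT1G26390 (from 0.467 ± 0.0699 to 14.5 ± 1.55 TPM) and AT1G26380 (from 0.785 ± 0.0542 to 14.8 ± 0.778 TPM). The neighbouring peroxidase genes PER4 (AT1G14540, from 2.38 ± 0.51 to 25.8 ± 0.671 TPM) and AT1G14550 (from 0.454 ± 0.291 to 11.2 ± 0.316 TPM) rose together. The set was completed by CYP81F2 (AT5G57220), which modifies indole glucosinolates (from 1.98 ± 0.398 to 20.4 ± 0.654 TPM), the touch-induced xyloglucan-modifying enzyme TCH4 (AT5G57560, from 34.5 ± 5.2 to 239 ± 3.09 TPM), the glutathione transferase GSTF6 (AT1G02930, from 6.08 ± 2.04 to 42.8 ± 5.24 TPM) and EXO (AT4G08950, from 69.5 ± 24.2 to 424 ± 36.4 TPM). Adjusted p-values of these 14 genes ran from 4.1e-13 to 8.6e-08.

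The largest falls on the same scale were more mixed. AT1G75945, which encodes an uncharacterized protein, was at 21.6, 29.4 and 26.8 TPM in Col and 0.686, 0.603 and 0.625 TPM in T31A (-4.03 ± 0.15, adjusted p = 2.9e-10). AT2G15020, also uncharacterized, was at 63.9, 43.2 and 44.6 TPM in Col and 2.71, 3.83 and 3.92 TPM in T31A (-3.51 ± 0.17). RLP19 (AT2G15080), a receptor-like protein, was at 22.1, 16.3 and 15.8 TPM in Col and 2.18, 2.52 and 1.91 TPM in T31A (-2.56 ± 0.15). No T31A library came near the Col range of these 3 genes, which were likewise ranked only where the groups did not overlap. MYB76 (AT5G07700), a regulator of aliphatic glucosinolate synthesis, fell from 6.45 ± 1.1 to 0.728 ± 0.261 TPM, the heat-responsive coactivator MBF1C (AT3G24500) from 32.3 ± 2.44 to 7.72 ± 0.267 TPM and the morning-phased clock-related gene RVE7 (AT1G18330) from 40.1 ± 3.91 to 10.2 ± 0.931 TPM. The others were AT5G42280 (from 6.24 ± 1.82 to 0.0199 ± 0.0186 TPM), AT2G24945 (from 18.5 ± 2.29 to 2.62 ± 0.137 TPM), the cytochrome P450 AT3G44970 (from 16 ± 1.21 to 2.41 ± 0.258 TPM), AT5G54585 (from 27.8 ± 2.23 to 6.33 ± 1.72 TPM), the sugar transporter gene SAG29 (AT5G13170, from 8.42 ± 0.622 to 1.62 ± 0.569 TPM), AT3G16670 (from 22.5 ± 5.21 to 5.71 ± 2.26 TPM) and the glucosyltransferase UGT73C1 (AT2G36750, from 7.39 ± 1.38 to 1.4 ± 0.582 TPM), besides HTR8.

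Genes for core histones other than H3.3 rose broadly in T31A. Of 35 tested genes for H3.1, H2A, H2B and H4, 29 were called higher and 0 lower, with a median log2 difference of 0.85, against 0.04 over all genes. Those rises are 82.9% of the 35 genes, beside 16.1% of all genes. The H3.1 genes were listed for the comparison, while the H2A, H2B and H4 families were taken up after their values had been seen. Among 5 H3.1 genes 4 rose. HTR2 (AT1G09200) was at 92.8, 99.9 and 90.4 TPM in Col and 169, 166 and 187 TPM in T31A (0.87 ± 0.08, adjusted p = 1.2e-06). HTR13 (AT5G10390) was at 21.5, 30.9 and 25.3 TPM in Col and 59.8, 57.1 and 59.2 TPM in T31A (1.17 ± 0.13, adjusted p = 1.6e-05). For both genes every T31A library was above every Col library. HTR9 (AT5G10400) rose by 0.70 and HTR1 (AT5G65360) by 0.67, and HTR3 (AT3G27360), named after its values were seen, was not called (0.85 ± 0.33, adjusted p = 0.068). All 8 H4 genes rose, with a median of 1.06: AT3G53730 was at 32.9, 54.7 and 54.1 TPM in Col and 237, 241 and 249.9 TPM in T31A (2.37 ± 0.14, adjusted p = 2.3e-08). HIS4 (AT2G28740), AT3G45930 and AT1G07820 rose by 1.29, 1.36 and 1.01. Of the H2B genes, 8 of 9 rose (median 0.92), among them AT2G37470 (from 26.1 ± 5.43 to 53.6 ± 2.59 TPM), HTB9 (AT3G45980, from 199 ± 34.8 to 374 ± 35.2 TPM), AT2G28720 (from 87.4 ± 22.5 to 167 ± 9.55 TPM) and HTB11 (AT3G46030, from 154 ± 20.3 to 255 ± 21.8 TPM). Of the H2A genes, 9 of 13 rose (median 0.47), with the damage-associated variant GAMMA-H2AX (AT1G54690) at 0.87, HTA7 (AT5G27670) at 0.85, RAT5 (AT5G54640) at 0.75 and HTA4 (AT4G13570) at 0.87. The linker histone gene HIS1-3 (AT2G18050), chosen after its values were seen, was at 106, 121 and 102 TPM in Col and 549.5, 526 and 589 TPM in T31A (2.33 ± 0.08, adjusted p = 9.3e-11). Members of these families are near copies of one another, so the split of reads between single genes is uncertain.

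Histone transcripts are short and mostly unspliced, so they were also examined without Col replicate 1 and after a trend over transcript length had been removed from each library. Without that library 28 of the 35 genes were called higher, with a median of 0.74, and with the trend removed 29 were, with a median of 0.76. Without Col replicate 3, 1 H2A gene was called lower. Side by side, the same genes had a median of 0.63 in K36A minus Col (27 higher, 0 lower) and of 0.07 in efs minus Col (9 higher, 2 lower), comparisons that use the same Col libraries. In the direct contrasts 30 of 35 were higher in T31A than in efs, where 39.0% of all genes differed in either direction. Against K36A, 5 were higher and 2 lower in T31A, where 27.7% of all genes differed. HTR1, HTR9 and HTR13 were H3.1 genes higher in T31A than in K36A (adjusted p = 0.038, 0.025 and 0.0042). None of the 17 tested genes of DNA replication and mitosis was called by limma, 1 had an unadjusted p below 0.05, and 1 was called by limma-voom on recovered reads. They include the cyclin-dependent kinase CDKB1;1 (AT3G54180, 0.28 ± 0.11, adjusted p = 0.065) and the replication licensing factor MCM5 (AT2G07690, -0.17 ± 0.08, adjusted p = 0.14). Their median was 0.06, 1 was called higher without Col replicate 3, and 1 was called lower under median-of-ratios and under quantile scaling.

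**Figure D2:**
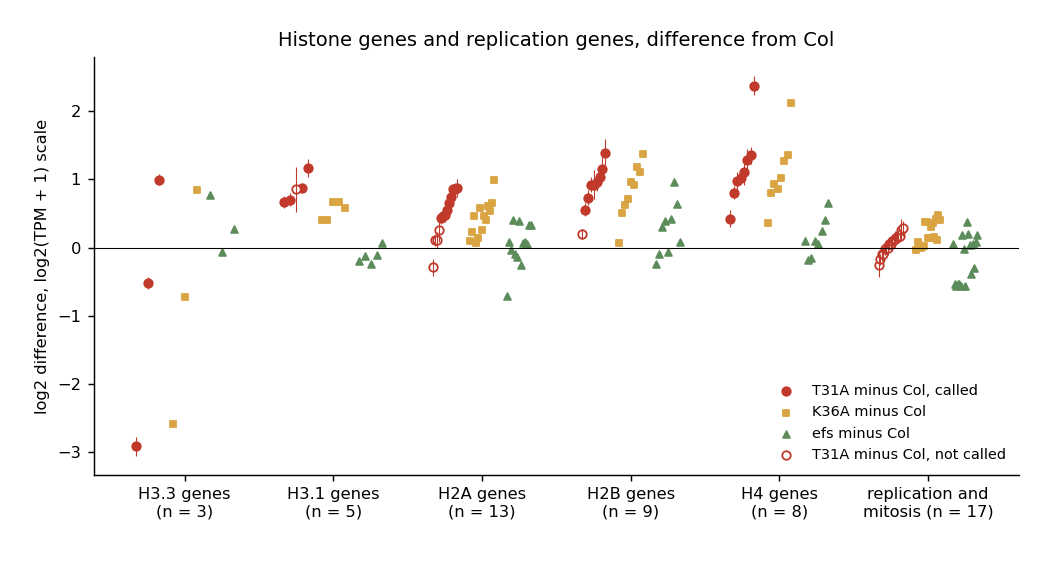
Log2 difference from Col on the log2(TPM + 1) scale for each histone gene and for genes of DNA replication and mitosis; circles are T31A with the standard error as a bar (filled where called), squares K36A and triangles efs. H4, H2B and H3.1 genes sit above 0 in T31A and K36A, the replication genes sit around 0 in T31A, and HTR8 is the lowest H3.3 point.

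Many replication-dependent histone genes of plants carry an octamer upstream of their start, CGCGGATC, which was searched on both strands of the window from 250 bases before to 50 bases after each annotated gene start. It occurred in 8 of 35 of these windows and in 33 of 19228 windows of genes tested (0.172%). This motif was added after the data had been seen. HTR2 and HTA10 (AT1G51060, from 135 ± 37.9 to 206 ± 3.72 TPM), the latter named after its values were seen, are printed because each holds it at 2 places; the lines give the 250 bases before the gene start on its own strand, TAIR10.1, with the octamer in capitals.
HTR2 (chr1:2972335-2972584, minus strand): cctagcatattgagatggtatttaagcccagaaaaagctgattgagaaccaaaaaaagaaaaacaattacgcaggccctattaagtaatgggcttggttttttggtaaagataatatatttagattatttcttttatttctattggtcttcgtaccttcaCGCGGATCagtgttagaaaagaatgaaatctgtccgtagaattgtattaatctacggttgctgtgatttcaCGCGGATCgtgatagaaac
HTA10 (chr1:18926561-18926810, plus strand): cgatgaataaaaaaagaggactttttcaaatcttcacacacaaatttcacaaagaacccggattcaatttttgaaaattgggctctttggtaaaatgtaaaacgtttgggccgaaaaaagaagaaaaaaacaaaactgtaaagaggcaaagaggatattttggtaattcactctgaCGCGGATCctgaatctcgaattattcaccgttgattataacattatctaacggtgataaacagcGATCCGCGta
AT3G53730, the H4 gene with the largest rise, had no exact match of these letters in its window.

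Genes for H3 deposition and for the marks on lysine 36 were mostly not called. Of 15 histone chaperone genes only MSI1 (AT5G58230), a subunit of the replication-coupled chaperone CAF-1, was called (from 29.2 ± 2.71 to 38.6 ± 0.314 TPM, 0.40 ± 0.07, adjusted p = 0.0011), a share of 6.67% beside 27.5% over all genes; 2 were called without Col replicate 1 or Col replicate 2. None of 6 H3K36 methyltransferase and reader genes passed in limma, while 1 had an unadjusted p below 0.05 and 1 passed in limma-voom. SDG7 (AT2G44150) was at 14.3 ± 1.73 TPM in Col and 17.3 ± 1.82 TPM in T31A (adjusted p = 0.057), and 1 gene of the list was called without Col replicate 1 or T31A replicate 1. The H3.1-directed ATXR5 (AT5G09790) and ATXR6 (AT5G24330) did not pass either (adjusted p = 0.13 and 0.3). Of 17 DNA damage response genes 7 rose (41.2%, beside 16.1% over all genes) and 1 fell (5.88%, beside 11.3%). XRI1 (AT5G48720), which is induced by X-rays, rose from 6.72 ± 0.594 to 11.9 ± 0.71 TPM (adjusted p = 3.1e-05). TSO2 (AT3G27060), a ribonucleotide reductase subunit, rose from 58.5 ± 6.4 to 95.8 ± 5.68 TPM and the poly(ADP-ribose) polymerase PARP2 (AT4G02390) from 4.52 ± 0.742 to 8.2 ± 0.214 TPM. The argonaute AGO2 (AT1G31280) fell from 10.2 ± 0.499 to 6.9 ± 0.419 TPM. In the direct contrast with K36A, where 27.7% of all genes differed in either direction, 7 of the list were higher in T31A and 0 lower. Among 11 DNA methylation genes the demethylase genes DML3 (AT4G34060, -0.44 ± 0.12, adjusted p = 0.012) and ROS1 (AT2G36490, -0.31 ± 0.10, adjusted p = 0.036) fell, a called share of 18.18% that lies below the 27.5% over all genes. The DML3 call was lost without T31A replicate 3, and the ROS1 call without any 1 of Col replicates 1 and 3 and T31A replicates 1, 2 and 3.

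Seed storage genes, which are active in maturing seeds, stood higher in T31A seedlings than in Col. Of 15 listed genes 9 passed the filter, 5 of them through T31A libraries alone, so their number is a description and not a test. In this list 8 were higher and the oleosin OLEO2 (AT5G40420), named after its values were seen, was lower (from 11.4 ± 0.173 to 8.46 ± 0.62 TPM). SESA2 (AT4G27150) was listed at 0 in all Col libraries and stood at 2.87, 3.17 and 5.0 TPM in T31A, at least 28.1-fold higher against a floor of 3 reads over the Col group. SESA1 (AT4G27140) was likewise at 0 in Col and at 1.87, 1.44 and 1.19 TPM in T31A, at least 11-fold higher. CRC was at 0.661, 0.154 and 0.102 TPM in Col and 21.6, 17.8 and 20 TPM in T31A. CRA1 was at 1.76, 1.03 and 1.64 TPM and 19.5, 16 and 19.6 TPM. All T31A libraries were above all Col libraries for these 4 genes. Summed over the 15 genes, the storage list reached 18 to 20.7 TPM in Col and 88.6 to 102 TPM in T31A. Side by side, SESA5 was at 0.805, 0.275 and 0.147 TPM in K36A and 0.536, 1.08 and 1.19 TPM in efs, and it was higher in T31A in both direct contrasts (adjusted p = 1.7e-09 and 1.3e-09). CRA1 was at 39.7, 38.9 and 36.4 TPM in efs, above T31A (T31A minus efs -1.03, adjusted p = 4.5e-05). In these bulk samples, fewer cells of a type and less RNA per cell cannot be told apart.

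The seed promoters are shown because they share a sequence that was not used to choose them, the RY element CATGCA. It occurred on either strand in 9 of the 9 tested storage and oil body genes and in 8.54% of all windows. Among genes at least 2-fold higher it occurred in 12.2%, and among those at least 2-fold lower in 18.7%. The 250 bases before the start of SESA5 and SESA2 read as follows, with the RY letters in capitals.
SESA5 (chr5:22239188-22239437, minus strand): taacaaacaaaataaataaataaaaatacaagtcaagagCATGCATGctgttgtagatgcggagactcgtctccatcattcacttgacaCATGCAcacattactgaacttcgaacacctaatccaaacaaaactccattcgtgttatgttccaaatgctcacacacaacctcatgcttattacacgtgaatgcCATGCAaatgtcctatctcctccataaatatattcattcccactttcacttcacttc
SESA2 (chr4:13609091-13609340, plus strand): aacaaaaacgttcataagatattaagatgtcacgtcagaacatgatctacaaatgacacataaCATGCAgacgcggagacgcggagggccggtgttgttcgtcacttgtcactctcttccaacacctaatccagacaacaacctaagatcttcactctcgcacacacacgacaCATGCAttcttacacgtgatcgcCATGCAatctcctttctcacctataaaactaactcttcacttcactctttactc
Of 7 tested regulators of the seed program 2 were called, ABI5 (AT2G36270, from 6.43 ± 0.245 to 10.6 ± 0.752 TPM, adjusted p = 8.6e-05) and the repressor VAL1 (AT2G30470, from 18.8 ± 1.82 to 22.8 ± 0.779 TPM, adjusted p = 0.023); leaving out Col replicate 2, or either of T31A replicates 1 and 2, ended the VAL1 call, and 1 fall was called without T31A replicate 3. The called share was 28.6% beside 27.5% over all genes. Late embryogenesis abundant and dehydrin genes, which protect drying tissue, gave 7 rises and 1 fall among 19. These are 36.8% and 5.26% of the list, beside 16.1% and 11.3% of all genes. EM1 (AT3G51810) rose from 1.48 ± 0.699 to 9.66 ± 1.96 TPM, ECP63 (AT2G36640) from 13.9 ± 1.91 to 25.1 ± 0.748 TPM and ERD14 (AT1G76180) from 662 ± 34.1 to 872 ± 58.5 TPM, and LTI30 (AT3G50970) fell from 26.8 ± 3.24 to 18.4 ± 0.623 TPM. The number of rises was 4 without T31A replicate 3, and the number of falls was 3 without Col replicate 1.

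Besides the storage genes, 2 genes were listed at 0 in all Col libraries. AT5G38910, a cupin family gene, stood at 1.74, 2.36 and 1.81 TPM in T31A, at least 20.2-fold higher. The uncharacterized AT1G53620 stood at 1.33, 1.67 and 1.74 TPM, at least 8.93-fold higher. No gene tested was at 0 in all T31A libraries.

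Defence genes rose in several branches. Of 18 genes for indolic defence compounds 8 rose and 3 fell. Besides CYP71A12 and CYP81F2, the methyltransferase IGMT2 (AT1G21120) was at 1.13, 1.84 and 1.32 TPM in Col and 13.8, 13.4 and 15 TPM in T31A (2.64 ± 0.15, adjusted p = 2.3e-08). CYP82C2 (AT4G31970), which hydroxylates indole carbonyl nitrile, was at 0.167, 0.039 and 0.0517 TPM in Col and 1.99, 1.83 and 1.85 TPM in T31A (1.41 ± 0.14). T31A libraries were above all Col libraries for both. CYP71A12 was at 2.18, 1.94 and 2.65 TPM in K36A and 0.354, 0.34 and 0.657 TPM in efs. Its direct differences from them were 3.72 and 4.88 (adjusted p = 9.1e-11 and 2e-12). The berberine-type oxidases, a family taken up after its values were seen, include genes of the same branch. Among them 9 of 18 rose and 4 fell, 4 having passed the filter through T31A libraries alone. K36A minus Col gave 10 rises and 3 falls in this family, and efs minus Col 9 and 7. AT1G26390 was at 0.524, 0.488 and 0.389 TPM in Col and 16.3, 13.5 and 13.8 TPM in T31A, against 0.27, 0.323 and 0.207 TPM in K36A and 0.0629, 0 and 0 TPM in efs. AT1G26380 and AT1G26410 were at 14.8, 14 and 15.6 TPM and 5.99, 4.85 and 4.98 TPM in T31A, above all their Col libraries, and AT1G30730 rose from 2.42 ± 0.665 to 15 ± 1.92 TPM.

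Of 17 genes of pattern-triggered immunity, the response to conserved microbial molecules, 9 rose and 0 fell. Called against Col were also 7 higher and 1 lower in K36A, and 11 higher and 2 lower in efs. T31A was above K36A for 6 genes and below it for 2, and above efs for 5 and below it for 4. PER4 was at 2.86, 1.84 and 2.45 TPM in Col and 25.3, 25.6 and 26.6 TPM in T31A (3.0 ± 0.11, adjusted p = 3.2e-10). The danger peptide precursor PROPEP3 (AT5G64905) was at 0.535, 1.16 and 1.77 TPM and 6.86, 7.22 and 9.91 TPM (2.09 ± 0.19). The receptor-associated kinase BIK1 (AT2G39660) rose from 16.4 ± 0.893 to 22.9 ± 2.01 TPM. In the salicylic acid branch 13 of 19 listed genes passed the filter. Of the 13, 7 rose and 0 fell, 3 having passed through T31A libraries alone. The others stayed near 0 TPM and are named after their values were seen. PR1, PR2, NIMIN1 and WRKY38 overlapped between the groups. SARD1 was at 0.208, 0.193 and 0.257 TPM in Col and 0.133, 0.182 and 0.0942 TPM in T31A. ALD1 was at 0.0721, 0.0224 and 0.0297 TPM in Col and 0.12, 0.131 and 0.245 TPM in T31A. CBP60G (AT5G26920), a transcription factor that promotes salicylic acid synthesis, was at 1.08, 1.34 and 1.22 TPM in Col and 8.1, 7.77 and 6.95 TPM in T31A (1.96 ± 0.15, adjusted p = 2.8e-07). PBS3 (AT5G13320), which conjugates isochorismate, rose from 0.498 ± 0.0575 to 2.39 ± 0.30 TPM, and FMO1 (AT1G19250), which makes N-hydroxypipecolic acid, from 0.233 ± 0.0935 to 1.81 ± 0.242 TPM. The salicylic acid receptor NPR3 (AT5G45110) rose from 15.5 ± 0.608 to 23.3 ± 2.0 TPM. Restricting the test to genes with a mean of at least 5 TPM gave 3 calls in this list. With the main filter, K36A minus Col gave 6 rises and 0 falls in it, and efs minus Col 5 and 2. In the WRKY transcription factor family 16 of 49 rose (32.7%, beside 16.1% over all genes) and 1 fell (2.04%, beside 11.3%). There were 10 rises without T31A replicate 1 and no fall without Col replicate 1 or T31A replicate 1. In K36A minus Col 22 were called higher and 4 lower, and in efs minus Col 26 and 4. The direct contrasts placed 7 higher and 11 lower in T31A than in K36A, and 3 higher and 20 lower than in efs. The leading members were WRKY18 (AT4G31800, from 3.72 ± 0.854 to 7.83 ± 0.335 TPM), WRKY22 (AT4G01250, from 5.97 ± 0.927 to 12.9 ± 1.84 TPM), WRKY48 (AT5G49520, from 1.37 ± 0.516 to 3.77 ± 0.374 TPM) and WRKY25 (AT2G30250, from 17.1 ± 2.04 to 24.8 ± 1.59 TPM). Of 111 genes annotated as disease resistance proteins, chosen after their values were seen, 18 rose and 21 fell. The rises are 16.2% of the list beside 16.1% of all genes, and the falls 18.9% beside 11.3%. Falls numbered 11 without T31A replicate 3 and 14 without Col replicate 1, and at a mean of at least 5 TPM 11 rose and 13 fell. The members with the smallest p were all rises: AT4G09420 rose from 4.34 ± 0.531 to 14.7 ± 0.831 TPM, AT1G61100 from 60.2 ± 5.24 to 127 ± 6.33 TPM, AT3G04210 from 15.1 ± 1.18 to 34.1 ± 1.05 TPM and AT1G63860 from 4.23 ± 0.565 to 10.6 ± 0.521 TPM.

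The WRKY factors bind the W-box, TTGAC. These letters occurred on either strand in 50.7% of all windows, in 62.9% of those of genes at least 2-fold higher, in 48.2% of those at least 2-fold lower, and in 14 of 17 pattern-triggered immunity genes. They also occurred in 11 of 13 shade and PIF genes. The sequence before CYP71A12 is shown as the defence gene with the largest rise on the log2(TPM + 1) scale. As a ratio of mean TPM, AT1G26390 rose further. The W-box letters of both strands are in capitals.
CYP71A12 (chr2:13101372-13101621, minus strand): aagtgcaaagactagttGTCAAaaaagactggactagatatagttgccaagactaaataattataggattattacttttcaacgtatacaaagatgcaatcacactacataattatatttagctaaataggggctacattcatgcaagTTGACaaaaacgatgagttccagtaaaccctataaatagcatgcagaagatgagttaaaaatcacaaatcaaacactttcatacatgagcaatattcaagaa

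Jasmonate, ethylene and low-oxygen genes moved less evenly. Of 17 jasmonate genes 5 rose and 7 fell. The falls included the vegetative storage protein VSP2 (AT5G24770, from 46.9 ± 3.3 to 23.6 ± 0.871 TPM, adjusted p = 5e-07) and the synthesis enzymes LOX2 (AT3G45140, from 92.2 ± 10.8 to 51.8 ± 3.07 TPM) and AOC2 (AT3G25770, from 354 ± 58.1 to 199 ± 12.3 TPM). The repressor gene JAZ7 (AT2G34600) rose from 0.63 ± 0.168 to 3.1 ± 1.12 TPM. Of 14 ethylene genes 4 rose and 1 fell, with 2 rises without T31A replicate 2. The called share was 35.7%, beside 27.5% over all genes. The synthesis gene ACS6 (AT4G11280) rose from 6.44 ± 0.798 to 12 ± 1.45 TPM. The receptor genes ERS1 (AT2G40940, from 43.7 ± 2.98 to 54 ± 1.82 TPM) and EIN4 (AT3G04580, from 13.2 ± 1.19 to 17.8 ± 1.61 TPM) rose, the latter not without T31A replicate 2. The receptor gene ETR2 (AT3G23150) fell from 8.48 ± 0.385 to 5.62 ± 0.665 TPM. Of 10 hypoxia genes PCO2 (AT5G39890, 0.69) and LBD41 (AT3G02550, 0.36) rose and the sucrose synthase SUS4 (AT3G43190) fell (-0.53), a called share of 30% beside 27.5% over all genes; at a mean of at least 5 TPM 1 rise and no fall were called.

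**Figure D3:**
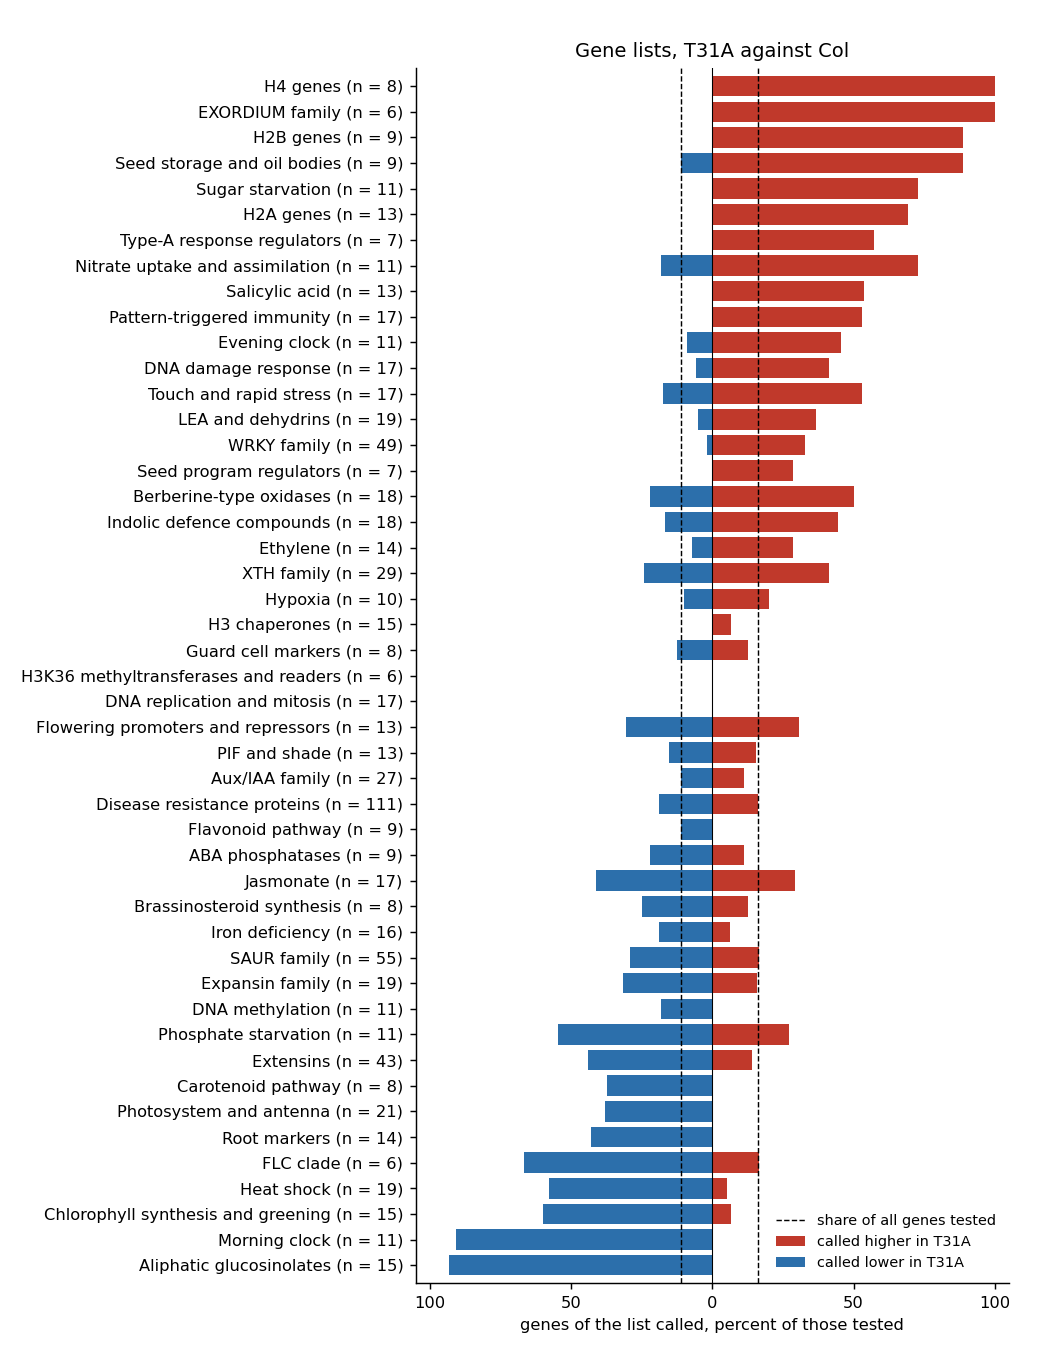
Share of the tested genes in each list called higher in T31A (red, to the right) or lower (blue, to the left), for lists with at least 6 genes tested; dashed lines mark the shares over all genes tested, 16.1% and 11.3%. H4, EXORDIUM and H2B genes lead on the higher side and the aliphatic glucosinolate and morning clock genes on the lower side; 5 of the 9 seed storage genes passed the filter through T31A libraries alone.

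Genes that respond to touch and that loosen or remodel the cell wall changed strongly. All 6 genes of the EXORDIUM family, extracellular proteins tied to growth and carbon status, rose, with a median of 1.83. EXO was at 96.6, 61.8 and 50.1 TPM in Col and 444, 382 and 446 TPM in T31A (2.64 ± 0.18, adjusted p = 8.4e-08). EXL5 (AT2G17230) was at 85.9, 62 and 58.3 TPM and 343, 284 and 323 TPM (2.204 ± 0.13). EXL3 (AT5G51550) was at 190.3, 146 and 142 TPM and 456, 405 and 448 TPM (1.46 ± 0.11). The groups did not overlap for any of them. Side by side, PHI-1 was at 25.1, 24.4 and 21 TPM in K36A and 293, 315 and 306 TPM in efs. T31A was above K36A (2.19, adjusted p = 1.7e-09) and below efs (-1.45, adjusted p = 2.2e-08). All 6 family members were higher in T31A than in K36A and 4 were lower than in efs. Over all genes 27.7% and 39.0% differed in these contrasts, in either direction. In the touch and rapid stress list 9 of 17 rose and 3 fell. TCH4 was at 38.5, 36.4 and 28.6 TPM in Col and 236, 239 and 242 TPM in T31A. The calmodulin-like TCH2 (AT5G37770) rose from 17.41 ± 0.424 to 46.3 ± 4.4 TPM. The transcription factor genes DREB26 (AT1G21910) and MYB15 (AT3G23250) rose from 6.2 ± 1.89 to 33.8 ± 1.03 TPM and from 0.169 ± 0.0904 to 2.72 ± 0.569 TPM.

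The xyloglucan endotransglucosylase/hydrolase (XTH) family, which cuts and rejoins the xyloglucan that ties cellulose fibres, split into 12 rises and 7 falls among 29 genes. These are 41.4% and 24.1% of the family, beside 16.1% and 11.3% of all genes. XTH25 (AT5G57550) was at 2.4, 1.82 and 1.59 TPM in Col and 15, 14.8 and 15.1 TPM in T31A (2.45 ± 0.11, adjusted p = 2.7e-09). XTH9 (AT4G03210) rose from 119.96 ± 12 to 428 ± 17.2 TPM and XTR6 (AT4G25810) from 6.48 ± 0.766 to 23 ± 1.17 TPM. Expansins, which loosen the wall at low pH, gave 3 rises and 6 falls among 19. Their rises are 15.8% of the list beside 16.1% of all genes, and their falls 31.6% beside 11.3%. EXPA1 (AT1G69530) was at 343, 294 and 292 TPM in Col and 96.9, 87.2 and 94.9 TPM in T31A (-1.72 ± 0.08, adjusted p = 2.3e-09). EXPA8 (AT2G40610) was at 256, 219 and 207 TPM and 74.9, 65.6 and 75.7 TPM (-1.64 ± 0.10). No T31A library reached the Col range of either gene, and EXP3 (AT2G37640) fell from 101 ± 10.2 to 63.3 ± 4.48 TPM. EXPA18 (AT1G62980, from 11.2 ± 1.78 to 5.69 ± 1.54 TPM) and EXPA7 (AT1G12560, from 10.7 ± 0.474 to 6.59 ± 1.06 TPM), expansins of root hairs, also fell.

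Some root and root hair genes were lower in T31A. Of 14 tested root markers 0 rose and 6 fell, and 8 did not pass, with a median of -0.33. The summed level of the list was 248 to 381 TPM in Col, the highest being Col replicate 1, and 222 to 245 TPM in T31A. The root hair wall protein LRX1 (AT1G12040) was at 19.5, 10.9 and 16.1 TPM in Col and 8.11, 8.35 and 5.43 TPM in T31A (-0.98 ± 0.18, adjusted p = 0.00092). PRP3 (AT3G62680), a proline-rich wall protein of root hairs, was at 90.9, 45.8 and 59 TPM and 37.3, 35.6 and 35.1 TPM (-0.78 ± 0.17, adjusted p = 0.0033). Col replicate 1 was the highest library for both. Without Col replicate 1, 5 root markers were called lower and 1 higher, with a median of -0.16. Genes annotated as extensins, taken up after their values were seen, gave 6 rises and 19 falls among 43 (median -0.39), or 4 and 17 without Col replicate 1 (median -0.21). At a mean of at least 5 TPM 3 rises were called. EXT6 (AT2G24980) was at 46.9, 26.9 and 41.6 TPM in Col and 14.4, 14.1 and 9.66 TPM in T31A (-1.51 ± 0.17, adjusted p = 1.6e-05). AT4G08410 fell from 8.35 ± 2.66 to 2.48 ± 0.0738 TPM, and AT1G26240 rose from 0.209 ± 0.115 to 5.96 ± 0.634 TPM. In the direct contrast with K36A, 12 of 14 root markers and 27 of 43 extensin genes were lower in T31A. Over all genes 27.7% differed in that contrast, in either direction. The K36A minus Col medians of these lists were 0.49 and 0.49. The part that root amount or root hair number has in these differences was not tested.

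Growth hormone genes changed in both directions. Of 27 auxin-repressor genes of the Aux/IAA family 3 rose and 3 fell, a share of 22.2% against 27.5% over all genes. SHY2 (AT1G04240) rose from 36 ± 5.26 to 60.8 ± 2.03 TPM and IAA18 (AT1G51950) from 26.4 ± 0.726 to 36.3 ± 1.53 TPM. IAA29 (AT4G32280) fell from 12.8 ± 0.414 to 5.48 ± 0.796 TPM and IAA1 (AT4G14560) from 26.4 ± 1.81 to 17.63 ± 0.86 TPM. Small auxin-up RNA (SAUR) genes, chosen after their values were seen, gave 9 rises and 16 falls among 55. The rises are 16.4% of the list beside 16.1% of all genes, and the falls 29.1% beside 11.3%. The list was led by AT4G38860 at 156, 174 and 189.9 TPM in Col and 65.7, 76.3 and 61.9 TPM in T31A (-1.34 ± 0.09, adjusted p = 6e-08). AT2G18010 fell from 5.15 ± 0.382 to 1.72 ± 0.0311 TPM and AT1G29490 from 5.47 ± 1.72 to 2.04 ± 0.0738 TPM, and AT1G72430 was at 110.2 ± 13.5 TPM in Col and 186 ± 6.62 TPM in T31A (adjusted p = 1e-05). Of 7 type-A response regulators, which are induced by cytokinin, 4 rose: ARR7 (AT1G19050, from 9.32 ± 1.16 to 19.5 ± 2.76 TPM), ARR4 (AT1G10470, from 37.9 ± 3.07 to 53 ± 0.815 TPM), ARR5 (AT3G48100, from 10.9 ± 1.95 to 17.2 ± 1.02 TPM) and ARR6 (AT5G62920, from 11.9 ± 2.83 to 15.5 ± 0.372 TPM). The ARR6 call was lost without any 1 of the libraries except Col replicate 1. Of 8 brassinosteroid genes ROT3 (AT4G36380, from 13.7 ± 1.36 to 8.25 ± 0.595 TPM) and BR6OX1 (AT5G38970, from 4.47 ± 0.754 to 2.35 ± 0.133 TPM) fell. DWF4 (AT3G50660) was called higher (from 18.9 ± 0.219 to 22 ± 0.481 TPM, limma adjusted p = 0.036), a call lost when any 1 of the 6 libraries was left out, with the replicate block and under both other scalings. The called share of the brassinosteroid list was 37.5%, beside 27.5% over all genes.

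Genes of the morning part of the circadian clock fell together. The clock is a loop of morning and evening factors. Morning factors such as CCA1 (AT2G46830) and evening factors such as TOC1 (AT5G61380) and the evening complex repress one another across the day. Of 11 morning genes 10 fell and 0 rose, with a median of -0.85. RVE7 was at 40, 44.1 and 36.2 TPM in Col and 10.4, 9.16 and 11 TPM in T31A (-1.88 ± 0.10, adjusted p = 6.5e-09). CCA1 was at 13.2, 13 and 12.8 TPM and 4.66, 5.02 and 4.74 TPM (-1.27 ± 0.08). PRR9 (AT2G46790), named after its values were seen, was at 12.8, 7.88 and 8.37 TPM and 1.74, 2.05 and 2.49 TPM (-1.77 ± 0.17, adjusted p = 3.2e-06). The groups did not overlap for any of the 3 genes. The coactivator LNK1 (AT5G64170) fell from 47.2 ± 2.24 to 19.8 ± 1.54 TPM and RVE1 (AT5G17300) from 6.29 ± 1.57 to 1.5 ± 0.311 TPM. Of 11 evening genes 5 rose (45.5%, beside 16.1% over all genes) and 1 fell (9.09%, beside 11.3%). TCP21 (AT5G08330, from 100.4 ± 11.2 to 173 ± 3.87 TPM), BOA (AT5G59570, from 6.57 ± 0.669 to 10.9 ± 0.529 TPM), LUX (AT3G46640, from 54.1 ± 4.01 to 72.8 ± 3.35 TPM) and ELF4 (AT2G40080, from 155 ± 20.2 to 223 ± 7.13 TPM) rose. In the direct contrast 10 of 11 morning genes were lower in T31A than in K36A, and 4 were lower and 3 higher than in efs. Over all genes 27.7% differed from K36A and 39.0% from efs, in either direction. All genotypes carry the same label for age and light, and the hour of harvest, which sets the level of these genes, was not stated in the sources used here.

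Motif letters were searched in the clock windows because clock factors bind known elements. The G-box CACGTG occurred in 8 of 11 morning windows and 9.0% of all windows. The evening element AAATATCT occurred in 6 of 11 evening windows, 2 morning windows and 5.99% of all windows. The bases before PRR9 show the G-box at 2 places, in capitals.
PRR9 (chr2:19232357-19232606, plus strand): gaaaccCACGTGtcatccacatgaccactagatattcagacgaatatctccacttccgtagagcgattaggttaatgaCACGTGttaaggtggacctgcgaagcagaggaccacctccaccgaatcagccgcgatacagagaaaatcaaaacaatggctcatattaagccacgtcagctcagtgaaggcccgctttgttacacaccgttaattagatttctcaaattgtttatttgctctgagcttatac

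Heat shock genes were mostly lower. Of 19 genes 11 fell and 1 rose, with a median of -0.62, and 2 were called higher without Col replicate 1 or Col replicate 3. The chaperone HSP70 (AT3G12580) was at 112, 93.5 and 102 TPM in Col and 29.5, 29.9 and 29.6 TPM in T31A (-1.75 ± 0.07, adjusted p = 6.5e-10). MBF1C was at 30.4, 35.1 and 31.4 TPM and 7.95, 7.43 and 7.78 TPM (-1.93 ± 0.10). The co-chaperone ROF2 (AT5G48570) was at 36.9, 29.7 and 30.9 TPM and 9.25, 9.27 and 11.3 TPM (-1.62 ± 0.10). HSP90.1 (AT5G52640) fell from 60 ± 7.95 to 25.4 ± 2.02 TPM, and in none of these genes did the groups overlap. The direct contrast with K36A placed 13 of 19 lower in T31A and 0 higher, while against efs 6 were lower and 4 higher. The shares over all genes in these contrasts were 27.7% and 39.0%, in either direction. The heat shock element GAANNTTC occurred in 7 of 19 windows of the list and in 11.1% of all windows. It also occurred in 7 of 17 windows of the touch and rapid stress list and 5 of 11 of the phosphate starvation list. Of 13 shade and PIF genes 2 rose and 2 fell, a called share of 30.8% near the 27.5% over all genes, and 4 fell under median-of-ratios scaling. HFR1 (AT1G02340), which restrains the shade response, fell from 50.1 ± 1.61 to 23.5 ± 0.814 TPM, and IAA29 fell. PIF3 (AT1G09530) rose from 12 ± 0.936 to 16.7 ± 0.289 TPM and HB4 (AT2G44910) rose from 3.59 ± 0.455 to 5.64 ± 0.646 TPM, a call lost without T31A replicate 3.

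**Figure D4:**
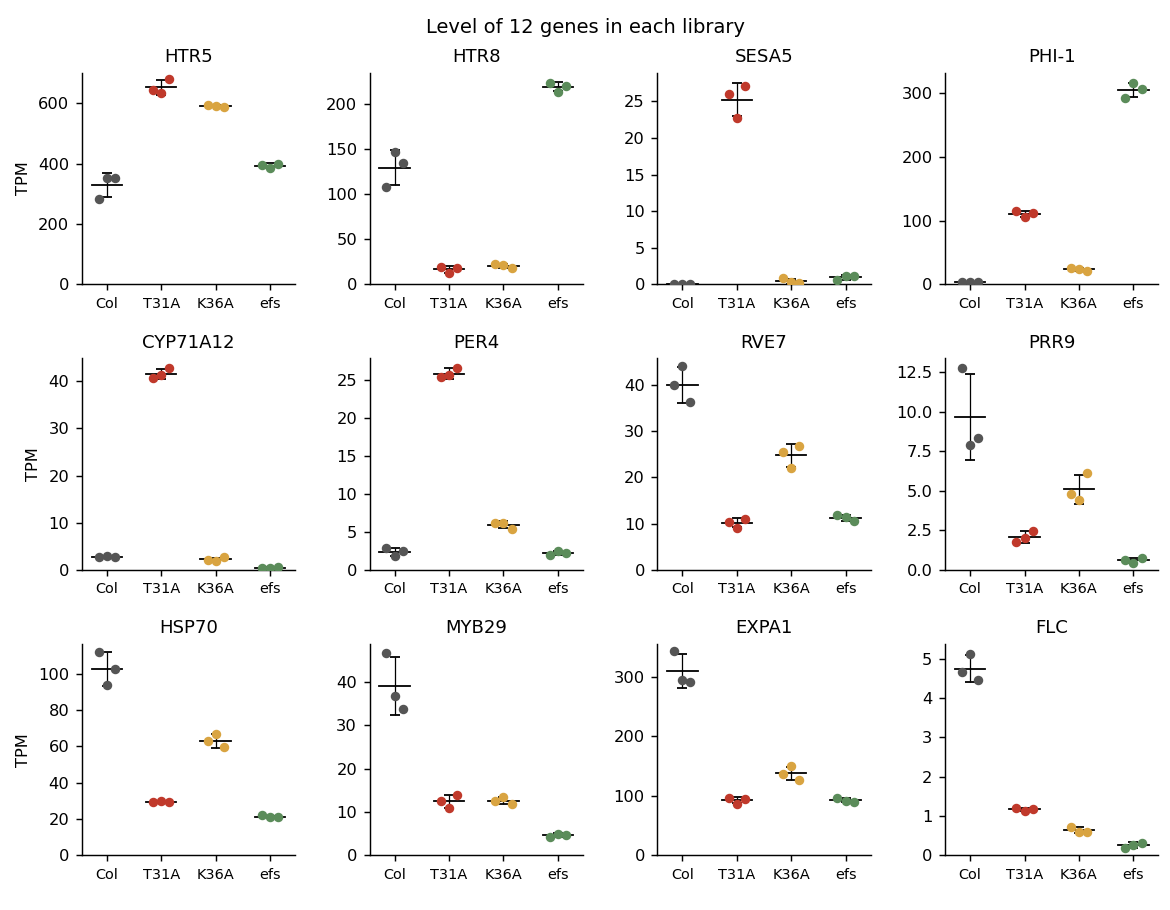
TPM of 12 genes in each of the 12 libraries; points are libraries, the long bar is the genotype mean and the error bar 1 SD (n = 3). T31A stands above the other 3 genotypes for SESA5, CYP71A12 and PER4, near K36A for HTR5, HTR8 and MYB29, and between K36A and efs for PHI-1.

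Aliphatic glucosinolate genes fell almost without exception. These sulphur-rich compounds, made from methionine, deter herbivores, and MYB28 (AT5G61420), MYB29 (AT5G07690) and MYB76 switch on their synthesis. Of 15 genes 14 fell and 0 rose, with a median of -0.96, and the exception, named after its values were seen, was the chain-elongation gene MAM3 (AT5G23020, 0.07 ± 0.12, adjusted p = 0.7). CYP83A1 (AT4G13770) was at 246, 227 and 231 TPM in Col and 95, 92.6 and 98.2 TPM in T31A (-1.29 ± 0.06, adjusted p = 2.3e-09). BCAT4 (AT3G19710), which starts methionine elongation, was at 103, 93.5 and 91 TPM and 33.5, 33.7 and 36.3 TPM (-1.45 ± 0.07). CYP79F1 (AT1G16410) was at 107, 92.3 and 93.9 TPM and 36, 36.8 and 36.4 TPM (-1.40 ± 0.07). The groups did not overlap for these genes, and MAM1 (AT5G23010) fell from 166 ± 16.2 to 70.8 ± 0.345 TPM. Side by side the list had a median of -0.79 in K36A minus Col and -1.72 in efs minus Col. In the direct contrasts 2 genes were lower and 1 higher in T31A than in K36A, and 12 were higher than in efs. The shares of all genes that differed were 27.7% and 39.0%, in either direction.

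Genes for photosynthesis and greening were lower by smaller amounts. Of 21 photosystem and antenna genes 8 fell and 0 rose (median -0.14). The falls are 38.1% of the list beside 11.3% of all genes. The antenna gene LHCB2.1 (AT2G05100) was at 2618, 2820.1 and 2864 TPM in Col and 1669, 1642 and 1727 TPM in T31A (-0.72 ± 0.06, adjusted p = 9.4e-07). LHCB1.1 (AT1G29920) fell from 3738 ± 162 to 2198 ± 113 TPM, LHCB2.2 (AT2G05070) from 2308 ± 206 to 1694 ± 95.4 TPM and LHCB3 (AT5G54270) from 5058 ± 258 to 4107 ± 54 TPM. With quantile normalization 5 genes of the list were called lower. Antenna genes of one type are near copies, so the split between them is uncertain. In chlorophyll synthesis and greening 9 of 15 fell and 1 rose (median -0.37). GLK2 (AT5G44190), a transcription factor that drives chloroplast development, was at 158, 143 and 150.01 TPM in Col and 61.9, 57.3 and 62.6 TPM in T31A (-1.30 ± 0.07, adjusted p = 1.3e-08). Its partner GLK1 (AT2G20570) fell from 140.1 ± 22.1 to 89.1 ± 3.88 TPM, the synthesis enzyme HEMA1 (AT1G58290) from 237 ± 5.93 to 170.1 ± 12.3 TPM and CRD1 (AT3G56940) from 1628 ± 92.5 to 1227 ± 43.9 TPM. Of 8 carotenoid genes ABA1 (AT5G67030, from 170.4 ± 7.93 to 112 ± 2.34 TPM), CRTISO (AT1G06820, from 33.4 ± 0.71 to 27.8 ± 0.884 TPM) and LYC (AT3G10230, from 101 ± 11.1 to 79.9 ± 7.92 TPM) fell. These falls are 37.5% of the list beside 11.3% of all genes. The CRTISO call was lost without T31A replicate 1, and the LYC call without Col replicate 2 or 3 or T31A replicate 1 or 3. CRTISO was at 4.45, 4.4 and 4.45 TPM in K36A and 1.68, 1.57 and 1.71 TPM in efs. T31A was above both (adjusted p = 9.1e-11 and 9.6e-13). Of 9 flavonoid genes AT4G14090 fell (from 2.61 ± 0.57 to 1.5 ± 0.223 TPM), a called share of 11.1% beside 27.5% over all genes. The others did not pass, though 1 rise was called without Col replicate 1 or T31A replicate 2.

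Nutrient lists differed in direction. In sugar starvation 8 of 11 rose and 0 fell (median 0.53). ERD5 (AT3G30775), the proline dehydrogenase, was at 44.1, 27.8 and 26.9 TPM in Col and 121, 107 and 119 TPM in T31A (1.82 ± 0.15, adjusted p = 7.7e-07). DIN10 (AT5G20250) rose from 346 ± 16.3 to 712 ± 38.4 TPM, the asparagine synthetase DIN6 (AT3G47340) from 78.8 ± 4.6 to 118 ± 2.94 TPM and BCAT2 (AT1G10070) from 5.95 ± 0.655 to 11.7 ± 0.936 TPM. In efs the same list had a median of 1.96, and 10 of 11 genes were lower in T31A than in efs. In that contrast 39.0% of all genes differed in either direction. In nitrate uptake and assimilation 8 of 11 rose and 2 fell, though 1 or no falls were called without any 1 library. The nitrate reductase NIA1 (AT1G77760) rose from 136 ± 10.4 to 229.9 ± 9.79 TPM (adjusted p = 1.9e-06) and the glucose-6-phosphate dehydrogenase G6PD3 (AT1G24280) from 12.7 ± 1.11 to 20.9 ± 0.482 TPM. The repressors LBD38 (AT3G49940) and LBD39 (AT4G37540) rose from 47.2 ± 4.2 to 68.2 ± 3.1 TPM and from 74.5 ± 7.68 to 104.7 ± 6.05 TPM. In phosphate starvation 6 of 11 fell and 3 rose, with 1 rise without Col replicate 2 or 3 or T31A replicate 1 or 2. The sensor SPX1 (AT5G20150) was at 83.3, 92.1 and 79.8 TPM in Col and 48.6, 52.7 and 50.7 TPM in T31A (-0.74 ± 0.09, adjusted p = 4.2e-05). The transporter PHT1;4 (AT2G38940) fell from 9.99 ± 0.296 to 6.59 ± 0.244 TPM, the phosphatase PAP17 (AT3G17790) from 32.6 ± 0.691 to 22.2 ± 0.744 TPM and the sulpholipid enzyme SQD1 (AT4G33030) from 155 ± 13.8 to 119 ± 6.54 TPM. Among 16 iron deficiency genes 3 fell and 1 rose, or 2 rose without Col replicate 1; the called share was 25%, below the 27.5% over all genes. The root iron transporter IRT1 (AT4G19690) was at 11.7, 11.6 and 11.6 TPM in Col and 4.89, 7.08 and 5.09 TPM in T31A (-0.94 ± 0.11, adjusted p = 3.3e-05). The root reductase FRO2 (AT1G01580) fell from 3.24 ± 0.492 to 1.45 ± 0.0549 TPM and the regulator BHLH101 (AT5G04150) from 18.15 ± 3.12 to 13.1 ± 0.0332 TPM. The phloem transporter OPT3 (AT4G16370) rose from 124 ± 8.07 to 167 ± 10.3 TPM. IRT1 and FRO2 are root genes, and the summed level of the root markers was 222 to 245 TPM in T31A against 248 to 381 TPM in Col; the part that root amount has in these falls was not tested.

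Flowering genes showed a fall of the repressor FLC (AT5G10140). FLC was at 4.67, 5.13 and 4.45 TPM in Col and 1.19, 1.13 and 1.18 TPM in T31A (-1.41 ± 0.12, adjusted p = 9.3e-07), and no T31A library reached the Col range. Side by side FLC was at 0.724, 0.602 and 0.604 TPM in K36A and 0.183, 0.275 and 0.327 TPM in efs. T31A was above both (adjusted p = 0.021 and 0.00012). In the clade of FLC and its MAF relatives 4 of 6 fell and 1 rose. MAF4 (AT5G65070) fell from 3.62 ± 0.056 to 2.19 ± 0.0898 TPM, MAF5 (AT5G65080) from 1.88 ± 0.489 to 0.952 ± 0.0783 TPM and MAF1 (AT1G77080) from 14.9 ± 0.733 to 12 ± 0.379 TPM. However, 2 falls were called without Col replicate 1, Col replicate 2 or T31A replicate 3, the MAF1 and MAF5 calls being lost in each. The MAF1 call was also lost without T31A replicate 1 or 2, with a pseudocount of 0.1 and with the length trend removed. The rise, MAF3 (AT5G65060, 0.31 ± 0.11, named after its values were seen), was lost when any 1 library was left out. It was also lost with the replicate block, under both other scalings, with a pseudocount of 0.1, under other filters on low values and with the length trend removed. MAF1 stood at 1.57, 1.44 and 1.23 TPM in K36A and 1.29, 1.19 and 1.07 TPM in efs. T31A was above both in the direct contrasts (adjusted p = 1.4e-09 and 1.7e-10). Of 13 other flowering genes 4 rose and 4 fell. The integrator SOC1 (AT2G45660) rose from 14 ± 1.92 to 21.1 ± 0.174 TPM and the repressor TEM1 (AT1G25560) from 36.6 ± 2.0 to 53.5 ± 1.36 TPM. The repressors SVP (AT2G22540) and SNZ (AT2G39250) fell from 73 ± 11.4 to 50.3 ± 1.1 TPM and from 19.4 ± 3.29 to 10.3 ± 0.222 TPM. Of 9 abscisic acid phosphatase genes PP2CA (AT3G11410) rose from 57.1 ± 4.71 to 99.4 ± 8.5 TPM. HAB1 (AT1G72770, from 26.3 ± 1.54 to 21.8 ± 0.552 TPM) and ABI1 (AT4G26080, from 53.4 ± 0.553 to 45.6 ± 1.59 TPM) fell, the latter not without T31A replicate 1. The called share of the phosphatase list was 33.3%, near the 27.5% over all genes. Of 8 guard cell markers MYB60 (AT1G08810) fell from 35.4 ± 7.68 to 23.8 ± 0.966 TPM and TMM (AT1G80080) was called higher (from 18 ± 0.52 to 22 ± 2.49 TPM), a call lost without Col replicate 2 or T31A replicate 1 and under median-of-ratios and quantile scaling; 2 falls were called without Col replicate 2 and under those scalings. The called share of the list was 25%, below the 27.5% over all genes. The floral gene PI (AT5G20240), the only flower marker tested, was not called (-0.03 ± 0.13, adjusted p = 0.88).

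Which differences set T31A apart from the other mutants was asked by direct contrasts in the same fit. Between T31A and K36A 5363 genes differed (27.7% of genes tested) and between T31A and efs 7553 (39.0%). Genes called against Col and, in the same direction, against both K36A and efs, while K36A and efs were not called against Col, numbered 386 (2.0%), 153 higher and 233 lower in T31A. On the log2(TPM + 1) scale the largest rise among them was the berberine-type oxidase AT1G26410. It was at 0.504, 0.47 and 0.249 TPM in Col, 5.99, 4.85 and 4.98 TPM in T31A, 0.416, 0.497 and 0.465 TPM in K36A and 0.485, 0.629 and 0.405 TPM in efs. The RING finger gene AT5G60250 was at 1.55, 1.19 and 1.37 TPM in Col, 9.11, 8.34 and 8.34 TPM in T31A, 1.45, 1.79 and 1.78 TPM in K36A and 1.48, 1.23 and 1.35 TPM in efs. No library of the other genotypes reached the T31A range of either gene, and the genes were chosen for differing from each other genotype. CBP60G stood at 1.51, 1.8 and 2.05 TPM in K36A and 1.256, 1.9 and 0.919 TPM in efs, below every T31A library. The glutathione transferase GSTU12 (AT1G69920) rose from 0.0432 ± 0.0374 to 3.03 ± 0.314 TPM and the uncharacterized AT1G27565 from 0.105 ± 0.0932 to 3.26 ± 0.738 TPM. As a ratio of mean TPM, GSTU12 rose further than AT1G26410 (70.2-fold against 12.9-fold), on few Col reads. The largest fall on that log2 scale was AT3G16670, a Pollen Ole e 1 and extensin family gene. It was at 28.5, 19 and 20 TPM in Col, 8.05, 5.56 and 3.53 TPM in T31A, 17.9, 17.3 and 10.8 TPM in K36A and 26.2, 21.9 and 20.2 TPM in efs. The lectin family gene AT3G09190 was at 7.77, 5.85 and 7.08 TPM in Col, 1.15, 2.45 and 1.2 TPM in T31A, 4.74, 5.59 and 6.48 TPM in K36A and 8.96, 8.44 and 6.57 TPM in efs. All T31A libraries were below all other libraries for both genes, which were chosen in the same way. AT5G22580 fell from 129 ± 34.2 to 51.1 ± 3.72 TPM, AT3G10116 from 2.01 ± 0.843 to 0.246 ± 0.191 TPM and the proline-rich AT5G26080 from 2.68 ± 0.492 to 0.571 ± 0.0719 TPM. As a ratio of mean TPM, AT3G10116 fell further than AT3G16670 (8.19-fold against 3.95-fold). A gene not called in K36A or efs is not shown to be unchanged there, which is why the direct contrasts were required.

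The share of genes called differed with gene structure. Genes with 1 annotated exon were called higher in 21.4% and lower in 13.9% of cases (n = 2998), and genes with 10 or more exons in 8.14% and 8.25% (n = 3735). Without Col replicate 1 the shares called higher were 23.7% and 12.1%, and with the length trend removed 20.5% and 11.4%. Among genes with a mean level of 10 to 50 TPM they were 24% and 8.47%. The 3854 genes with the shortest transcripts were called higher in 18.9% and the 3842 with the longest in 11.3%, but without Col replicate 1 these shares were 16.6% and 16.9%, so the order by length rested on that library. Over the 5 chromosomes, 15.72% to 16.7% of genes were called higher and 11.1% to 11.9% were called lower.

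**Figure D5:**
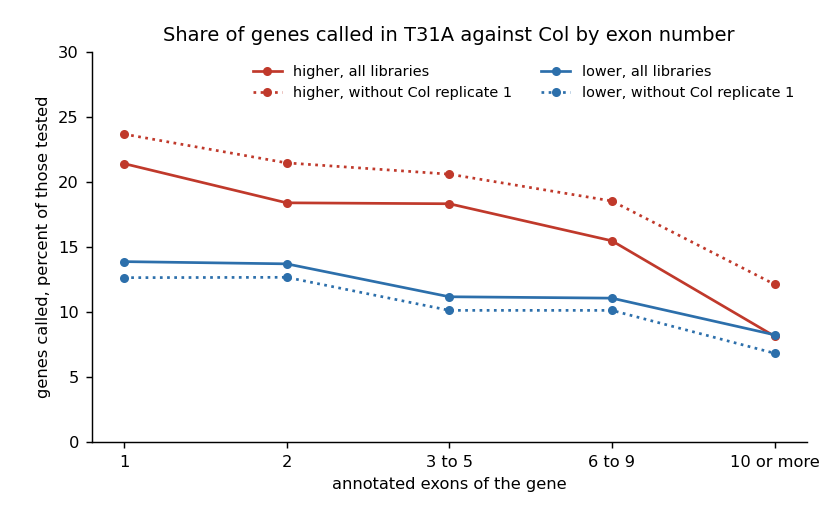
Share of tested genes called higher (red) or lower (blue) in T31A, on the y axis, by the number of annotated exons, on the x axis, with all libraries (solid) and without Col replicate 1 (dotted). Both shares decline from genes with 1 exon to genes with 10 or more, with and without that library.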

How the data were processed

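Per the labels' protocols, total RNA was extracted with the Minibest plant kit and made into NEBNext Ultra libraries. Per the submitters' processing notes, fastp 0.20.1, HISAT2 2.1.10 and DESeq2 1.26.0 were used with the build TAIR10; the counter and its strand setting were not stated in the sources used here. The deposited values are the authors' TPM: the values are not whole, although the file headers call the columns counts. The authors' TPM divides by the whole gene span, introns included, because value times span gave whole reads (within 0.001) for 99.9768% or more of values below 200 reads; gene spans came from RefSeq TAIR10.1, which lacks 171 table genes. Depth limits the precision of low values.

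The values were tested as log2(TPM + 1) with limma 3.58.1 in R 4.3.3, with all 12 libraries and 4 genotypes in 1 fit, a trended prior variance and Benjamini-Hochberg adjustment; the procedure was tested on simulated data. Genes, 45 lists (counting the union of the H3.1, H2A, H2B and H4 genes), 7 families and named genes were chosen with earlier results of these data known. Named were the H3.3 genes and EFS, the 14 largest rises and falls of called protein-coding genes whose mean reached 5 TPM in 1 group and whose groups do not overlap, up to 4 members a list by smallest p (2 where none was called), genes at 0 in 1 group, and 5 in each direction among genes called in T31A but not in K36A or efs and in both direct contrasts. Further names are marked. limma-voom on recovered reads, the length trend and the histone octamer were chosen after the data were seen. Figures used Python 3.11.15, pandas 2.3.3 and matplotlib 3.10.9.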

Additional observations from a re-analysis of the deposited data

How the results depend on the processing

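The count of 5313 called genes ranged from 3912 to 5654 when 1 library was left out. It was 395 where a difference of at least 1 on the log2(TPM + 1) scale was also required. It stayed within 1.5 times under the other pseudocounts, filters, scalings and fits. After the data were seen, limma-voom on recovered reads was added and called 5978, and the length-trend fit, also added, called 5801. The share of calls that were higher was 58.8%, was 65.1% without Col replicate 1, and fell to 44.7% and 47.2% under median-of-ratios and quantile scaling. With a replicate block 5271 genes were called. Deviations of same-numbered Col and T31A libraries from their group means correlated at 0.23, -0.0045 and -0.16. The labels give only a replicate number, and these values cannot show whether same-numbered libraries share a batch. Of 191 called genes named or eligible by the rule, 13 lost the call in at least 1 setting other than the requirement of 2-fold, each of them when 1 library was left out. None of the 191 changed direction in any setting run, and the block lost 1 of them, DWF4. MAF3, named outside the rule, is not among the 191, and its call was also lost with the block. PI, which was not called, lay between -0.092 and 0.044 with 1 library left out, and was above 0 without Col replicate 3 (0.031) and without T31A replicate 3 (0.044). Requiring a mean of at least 5 TPM left fewer genes to test, and rises numbered 4 rather than 8 in the seed storage list and 2 rather than 5 in the jasmonate list. Under both other scalings falls numbered 2 rather than 1 in the evening clock and dehydrin lists, 1 rather than 0 among type-A response regulators and 5 rather than 3 among carotenoid genes. With the length trend removed 3 chaperone genes and 2 H3K36 genes were called higher. Low values limit the storage, salicylic acid and berberine genes, several of which rest on few Col reads.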
